A study of Homo sapiens with 4 samples.

Results

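The genes described here are 30 genes of the G1/S transition and of DNA replication, taken by symbol from a list of origin licensing, replication fork and nucleotide synthesis genes. All 30 of 30 were found among the 15037 genes of the count table, and all 30 passed the filter on low counts. Polyadenylated RNA was sequenced from A549, an established human cell line derived from a lung carcinoma. PSME4 KD cells carried a knockdown of PSME4, which encodes a proteasome activator, and control KD cells a knockdown labelled RFP. Each group had 2 libraries. The labels used here do not say how the knockdown was made, whether the cells were a clone or a pool, or whether each library had its own culture. The p-values therefore rest on the spread between libraries, which may be technical.

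Cells license replication origins in G1, when the origin recognition complex, CDC6 and CDT1 load the MCM2 to MCM7 helicase onto DNA. Cyclin E with CDK2 and the E2F transcription factors then drive entry into S phase, where CDC45 and the GINS complex join the helicase and DNA polymerases copy the strands with PCNA, RFC and FEN1. Transcripts of many of these genes peak around the G1/S boundary, which makes them common markers of proliferating tumour cells.

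Library totals were 14845701 to 15208588 counts in PSME4 KD and 11766371 to 11769392 in control KD. PSME4 itself fell 2.11-fold, with 75.3 and 85.1 CPM (counts per 1000000, scaled by TMM) in PSME4 KD, against 158 and 180 CPM in control KD (log2 fold change −1.08, SE 0.20, adjusted p = 0.000855, edgeR quasi-likelihood test). Fits that left out PSME4 KD 1, control KD 1 or control KD 2 did not call PSME4 (adjusted p = 0.146, 0.0522 and 0.0599 by edgeR). The epithelial markers KRT8, KRT18 and CDH1 stood at 201 CPM or more in each library, while EPCAM and KRT19 did not exceed 7.88 CPM. Of 15 markers of fibroblasts, endothelium and leukocytes, 8 were not among the genes analysed here, and the summed CPM of the other 7 was 78.3 to 82.7 in PSME4 KD and 65.7 to 65.9 in control KD. Of these 7, the fibroblast marker COL1A1 was higher (log2 fold change 0.73, adjusted p = 0.0479) and the fibroblast marker PDGFRA lower (−1.34, adjusted p = 0.0453, edgeR); their part in the results was not tested.

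**Figure D1:**
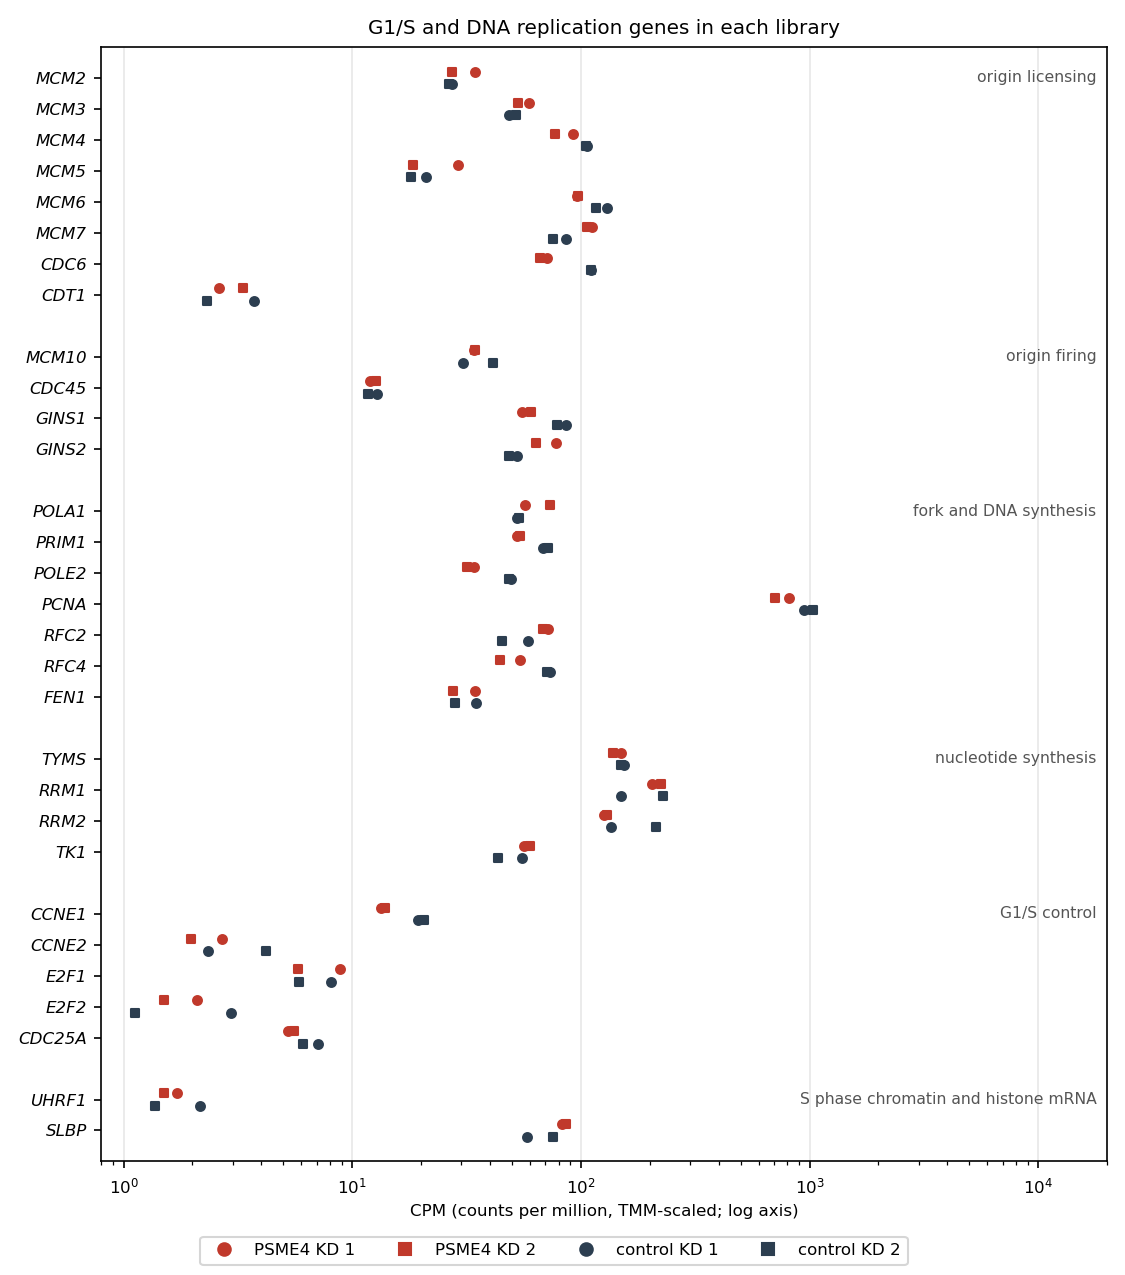
Level of each of the 30 genes in each library, as TMM-scaled CPM on a log axis, grouped by role, with PSME4 KD in red above control KD in dark blue. The groups do not overlap for 20 of the 30 genes, beside 55.0% of all tested genes. Levels run from 1.12 CPM for E2F2 to 1040 CPM for PCNA, both in control KD 2.

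Of the 30 G1/S and replication genes, 1 fell in PSME4 KD cells, 0 rose and 29 did not pass an adjusted p of 0.05 (edgeR quasi-likelihood test, adjusted by Benjamini-Hochberg over 13497 genes; DESeq2 and limma voom also called 1 lower and 0 higher). Over all tested genes 10.6% passed, 4.56% higher and 6.00% lower, so the 3.33% of these genes that passed is no larger a share than the background. At an unadjusted p under 0.05 there were 9 of the 30 genes, 3 higher and 6 lower, beside 26.2% of all genes, 12.1% higher and 14.1% lower. For 20 of the 30 genes, 8 higher and 12 lower, no PSME4 KD library overlapped with control KD, beside 55.0% of all genes, 26.7% higher and 28.4% lower. The median log2 fold change of the 30 genes was −0.07, with values between −0.69 and 0.49, and that of all tested genes was −0.0021. The median level in control KD was 50.4 CPM for the 30 genes and 20.3 CPM for all tested genes. Standard errors reached 0.44 among the 30 genes and 0.81 among all, so their interval widths are not alike. For 25 of the 30 genes the 95% interval of the log2 fold change lay inside −1 to 1, as it did for 64.3% of all genes. That range is a change of less than 2-fold either way. Without PSME4 KD 1 or 2 the number inside that range was 14 and 15, and without control KD 1 or 2 it was 18 and 22. In these bulk libraries fewer cells in S phase and less RNA per cell cannot be told apart.

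The transcript that fell was that of CDC6, the ATPase that loads the MCM helicase at origins, from a gene at chr17:40287879-40304657 on the plus strand of GRCh38.p14, where no other RefSeq gene overlaps it. CDC6 stood at 71.0 and 66.5 CPM in PSME4 KD, against 111 and 111 CPM in control KD. Its libraries did not overlap, and the gap between the groups was larger than the spread within either. CDC6 averaged 68.7 ± 3.21 CPM in PSME4 KD and 111 ± 0.423 CPM in control KD (SD, n = 2 each), from 2094 and 2575 counts, a 1.62-fold decrease (log2 fold change −0.69, SE 0.19, 95% interval −1.09 to −0.29). The adjusted p was 0.0226 (edgeR). DESeq2, limma voom and a GC correction also called CDC6 (adjusted p = 0.0106, 0.0214 and 0.0194). With any 1 of the 4 libraries left out edgeR did not call it (adjusted p = 0.235 and 0.358 without PSME4 KD 1 and 2, 0.108 and 0.0924 without control KD 1 and 2), although the log2 fold change stayed between −0.74 and −0.62. In the authors' deposited table CDC6 had a log2 value of 0.68 as control KD over PSME4 KD, and an adjusted p of 0.0136; it was the only 1 of the 30 genes under 0.05 there, and none was under 0.05 by the authors' further adjusted p (0.348 for CDC6).

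Promoters of these genes are a textbook target of E2F factors, so the letters around the start sites (250 bases before the start and 50 after it) were read from a RefSeq promoter table on GRCh38.p14 for 27 of the 30 genes; the promoters of MCM4, MCM5 and CCNE2 were not analysed here. An E2F word was taken as TTTGGCGC, TTTCCCGC, TTTCGCGC or TTTGCCGC on either strand; words on opposite strands can overlap, as they do in MCM2. Such a word was present in 16 of the 27 promoters (59.3%), against 601 of 11420 promoters of genes in the count table (5.26%) and 3.33% of all 27305 promoters of this length. The word CCAAT, on either strand, was present in 16 of the 27 as well, against 36.7% of promoters of genes in the count table. A match describes these letters and says nothing of binding. Only exact words were counted, so a promoter without one may still hold a variant of it. Shown here are the promoters of CDC6, of 3 genes that came closest to the threshold on the lower side (POLE2, RFC4 and GINS1) and of the gene with the highest fold change (GINS2), with any E2F word in capitals.
CDC6, chr17:40287629-40287928, plus strand: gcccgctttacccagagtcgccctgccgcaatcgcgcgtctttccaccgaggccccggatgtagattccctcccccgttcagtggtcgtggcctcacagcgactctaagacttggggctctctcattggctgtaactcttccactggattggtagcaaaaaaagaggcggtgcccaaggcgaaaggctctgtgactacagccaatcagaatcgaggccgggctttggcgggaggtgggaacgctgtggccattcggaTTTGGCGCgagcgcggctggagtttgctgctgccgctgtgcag
POLE2, chr14:49688165-49688464, minus strand: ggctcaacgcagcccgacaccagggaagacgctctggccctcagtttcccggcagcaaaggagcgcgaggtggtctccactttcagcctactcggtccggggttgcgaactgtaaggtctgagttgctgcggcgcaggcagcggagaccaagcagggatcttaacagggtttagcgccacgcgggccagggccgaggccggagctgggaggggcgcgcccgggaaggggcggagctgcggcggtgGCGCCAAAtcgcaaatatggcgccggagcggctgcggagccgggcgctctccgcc
RFC4, chr3:186806433-186806732, minus strand: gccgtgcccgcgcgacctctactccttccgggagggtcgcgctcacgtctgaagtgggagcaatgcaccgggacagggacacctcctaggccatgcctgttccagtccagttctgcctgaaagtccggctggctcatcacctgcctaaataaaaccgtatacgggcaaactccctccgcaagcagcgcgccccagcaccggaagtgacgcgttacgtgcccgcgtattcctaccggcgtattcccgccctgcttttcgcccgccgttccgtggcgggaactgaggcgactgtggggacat
GINS1, chr20:25407423-25407722, plus strand: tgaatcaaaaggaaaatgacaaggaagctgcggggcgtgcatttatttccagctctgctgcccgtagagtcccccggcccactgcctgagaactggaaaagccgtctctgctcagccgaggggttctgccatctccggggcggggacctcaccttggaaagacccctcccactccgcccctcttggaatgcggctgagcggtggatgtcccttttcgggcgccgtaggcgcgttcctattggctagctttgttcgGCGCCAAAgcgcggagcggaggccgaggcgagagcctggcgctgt
GINS2, chr16:85688905-85689204, minus strand: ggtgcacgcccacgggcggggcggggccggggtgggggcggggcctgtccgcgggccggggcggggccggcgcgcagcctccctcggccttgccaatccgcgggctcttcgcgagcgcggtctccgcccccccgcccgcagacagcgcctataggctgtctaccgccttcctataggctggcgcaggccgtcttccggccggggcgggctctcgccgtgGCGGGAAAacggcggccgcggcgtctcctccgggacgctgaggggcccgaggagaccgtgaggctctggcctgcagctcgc
The word of CDC6 began 8 bases into the transcript counted from its start as base 1, that of GINS1 at base 6, that of POLE2 at 5 bases before the start and that of GINS2 at 31 bases before it, and the RFC4 window held none. The median log2 fold change was −0.11 for the 16 genes with it and −0.02 for the 11 without it, and among all tested genes it was −0.03 for 569 with the word and 0.0066 for 9906 without. GINS1 and GINS2 both hold such a word and had values of opposite sign.

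Among the licensing genes the helicase subunits pointed in different directions. MCM7 stood at 112 and 106 CPM in PSME4 KD, against 85.8 and 75.4 CPM in control KD. MCM6 was at 96.6 and 97.5 CPM in PSME4 KD, against 130 and 116 CPM in control KD. In neither gene did the groups overlap, MCM7 being higher and MCM6 lower in both PSME4 KD libraries, but neither passed. The log2 fold changes were 0.44 for MCM7 (SE 0.19, 95% interval 0.04 to 0.84, adjusted p = 0.144) and −0.34 for MCM6 (SE 0.19, interval −0.73 to 0.06, adjusted p = 0.267, edgeR). After the GC correction they were closer together, at 0.20 for MCM7 and −0.21 for MCM6. MCM7 overlaps the protein-coding gene AP4M1, and the strand used in counting is not stated, so its counts are uncertain. The other helicase subunits MCM2, MCM3 and MCM5 had values of 0.20, 0.16 and 0.28, and MCM4, a chromosome 8 gene, had −0.32. Summed over MCM2 to MCM7, the 6 transcripts made up 424 and 380 CPM in PSME4 KD, against 418 and 394 CPM in control KD, so the total overlapped between groups.

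Per kilobase of the longest coding transcript, which allows levels to be set side by side between genes, MCM7 led the helicase subunits in PSME4 KD at 35.5 ± 1.33 CPM per kb, and MCM6 followed at 26.0 ± 0.180. In control KD MCM6 led at 32.9 ± 2.59 CPM per kb, followed by MCM7 at 26.1 ± 2.39 and MCM4 at 25.3 ± 0.0664, which did not differ beyond their spread (SD, n = 2 each). MCM5 was the lowest of the 6 in both groups, at 6.72 ± 2.15 CPM per kb in PSME4 KD and 5.54 ± 0.611 in control KD. CDT1, the loading factor that works with CDC6, was sparse, with 40 and 51 counts in PSME4 KD and 43 and 27 in control KD. Its log2 fold change of −0.02 had an interval of −0.76 to 0.73.

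Among the genes that fire licensed origins, the 2 GINS subunits that belong to the 30 genes pointed opposite ways. Other subunits of the complex were tested outside the 30 genes, and none of them passed by edgeR. GINS1 was at 55.0 and 60.8 CPM in PSME4 KD, against 86.3 and 78.8 CPM in control KD. GINS2 was at 78.2 and 63.6 CPM in PSME4 KD, against 52.7 and 48.6 CPM in control KD. Each gene separated the groups without overlap, and each missed the threshold (GINS2 overlaps GSE1, which makes its counts uncertain), with log2 fold changes of −0.51 for GINS1 (SE 0.20, adjusted p = 0.0932) and 0.49 for GINS2 (SE 0.20, adjusted p = 0.120, edgeR). MCM10 and CDC45, which help turn the loaded helicase on, were at −0.07 and 0.0058 and their libraries overlapped between groups.

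The fork genes had a median log2 fold change of −0.39 over 7 genes, and −0.17 after a GC correction, with 5 values below 0 and 2 above. None passed by edgeR, DESeq2 or limma voom. At an unadjusted p under 0.05 by edgeR there were 3 of 7, 1 higher and 2 lower, beside 26.2% of all genes, 12.1% higher and 14.1% lower. POLE2, the second subunit of the leading strand polymerase, was at 34.0 and 31.7 CPM in PSME4 KD, against 49.5 and 48.6 CPM in control KD. RFC4 was at 54.3 and 44.1 CPM in PSME4 KD, against 72.9 and 70.9 CPM in control KD. Both genes were lower in each PSME4 KD library, with log2 fold changes of −0.58 for POLE2 (SE 0.20, interval −0.996 to −0.16, adjusted p = 0.0652) and −0.55 for RFC4 (SE 0.20, interval −0.96 to −0.14, adjusted p = 0.0758, edgeR). RFC2, which sits with RFC4 in the clamp loader, was at 71.7 and 68.6 CPM in PSME4 KD, against 58.5 and 45.3 CPM in control KD. Here PSME4 KD was the higher group, at a log2 fold change of 0.43 (SE 0.20, adjusted p = 0.168, edgeR), which was 0.27 without control KD 2 and 0.28 after the GC correction.

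PCNA, the sliding clamp and the most abundant of the 30 transcripts, was at 816 and 703 CPM in PSME4 KD, against 946 and 1040 CPM in control KD. The groups did not overlap, yet the log2 fold change of −0.39 (SE 0.20, interval −0.79 to 0.01) gave an adjusted p of 0.210 by edgeR. PRIM1, the catalytic primase subunit, had −0.39 (−0.17 after the GC correction) and its partner POLA1, the catalytic subunit of polymerase alpha, had 0.30, while the flap nuclease FEN1 was at −0.02 with overlapping libraries. The loss of PCNA reads to pseudogene copies was not tested: RefSeq names 4 pseudogenes after PCNA, 3 after RRM2, 2 after TYMS and 1 after FEN1, and none of them was among the genes analysed here.

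Of the nucleotide synthesis genes, RRM1 and RRM2 encode the large and small subunits of ribonucleotide reductase. RRM2 was at 126 and 130 CPM in PSME4 KD, against 136 and 213 CPM in control KD. RRM1 was at 205 and 224 CPM in PSME4 KD, against 149 and 229 CPM in control KD. The control KD libraries differed from each other more than the groups did, and control KD 2 held the higher value of both genes. The log2 fold changes were −0.45 for RRM2 (SE 0.21, adjusted p = 0.170) and 0.18 for RRM1 (SE 0.21, adjusted p = 0.620, edgeR). The value of RRM2 was −0.73 without control KD 1 and −0.08 without control KD 2. TYMS, the thymidylate synthase, was at −0.08 (interval −0.47 to 0.31) and the thymidine kinase TK1 at 0.23 (interval −0.19 to 0.65). TYMS overlaps the protein-coding gene ENOSF1, so its counts are uncertain.

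Among the genes that control the transition, CCNE1, which encodes cyclin E1, was at 13.3 and 13.9 CPM in PSME4 KD, against 19.4 and 20.6 CPM in control KD. All PSME4 KD values lay below the control KD values, and the log2 fold change was −0.55 (SE 0.23, interval −1.03 to −0.08, adjusted p = 0.121 by edgeR). After the GC correction CCNE1 passed, at −0.70 with an adjusted p of 0.0306. Its paralog CCNE2, also on chromosome 8, had 41 and 30 counts in PSME4 KD and 27 and 49 in control KD, and an interval of −1.27 to 0.29. The phosphatase CDC25A, which activates CDK2, was at −0.28, and the transcription factors E2F1 and E2F2 were at 0.08 and −0.17. E2F2 and UHRF1, a reader of hemimethylated DNA, were the least abundant, at 0.348 ± 0.0807 and 0.373 ± 0.0326 CPM per kb in PSME4 KD and 0.391 ± 0.248 and 0.411 ± 0.129 in control KD, and neither pair differed beyond its spread. CCNE2 overlaps the protein-coding genes INTS8 and NDUFAF6, and UHRF1 overlaps ARRDC5, so the counts of both are uncertain. SLBP, which binds the stem-loop of replication-dependent histone mRNAs, was at 82.6 and 85.7 CPM in PSME4 KD, against 58.4 and 75.2 CPM in control KD. PSME4 KD was higher in both libraries, with a log2 fold change of 0.33 (SE 0.20, adjusted p = 0.298, edgeR), which was 0.16 without control KD 1 and 0.53 without control KD 2.

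**Figure D2:**
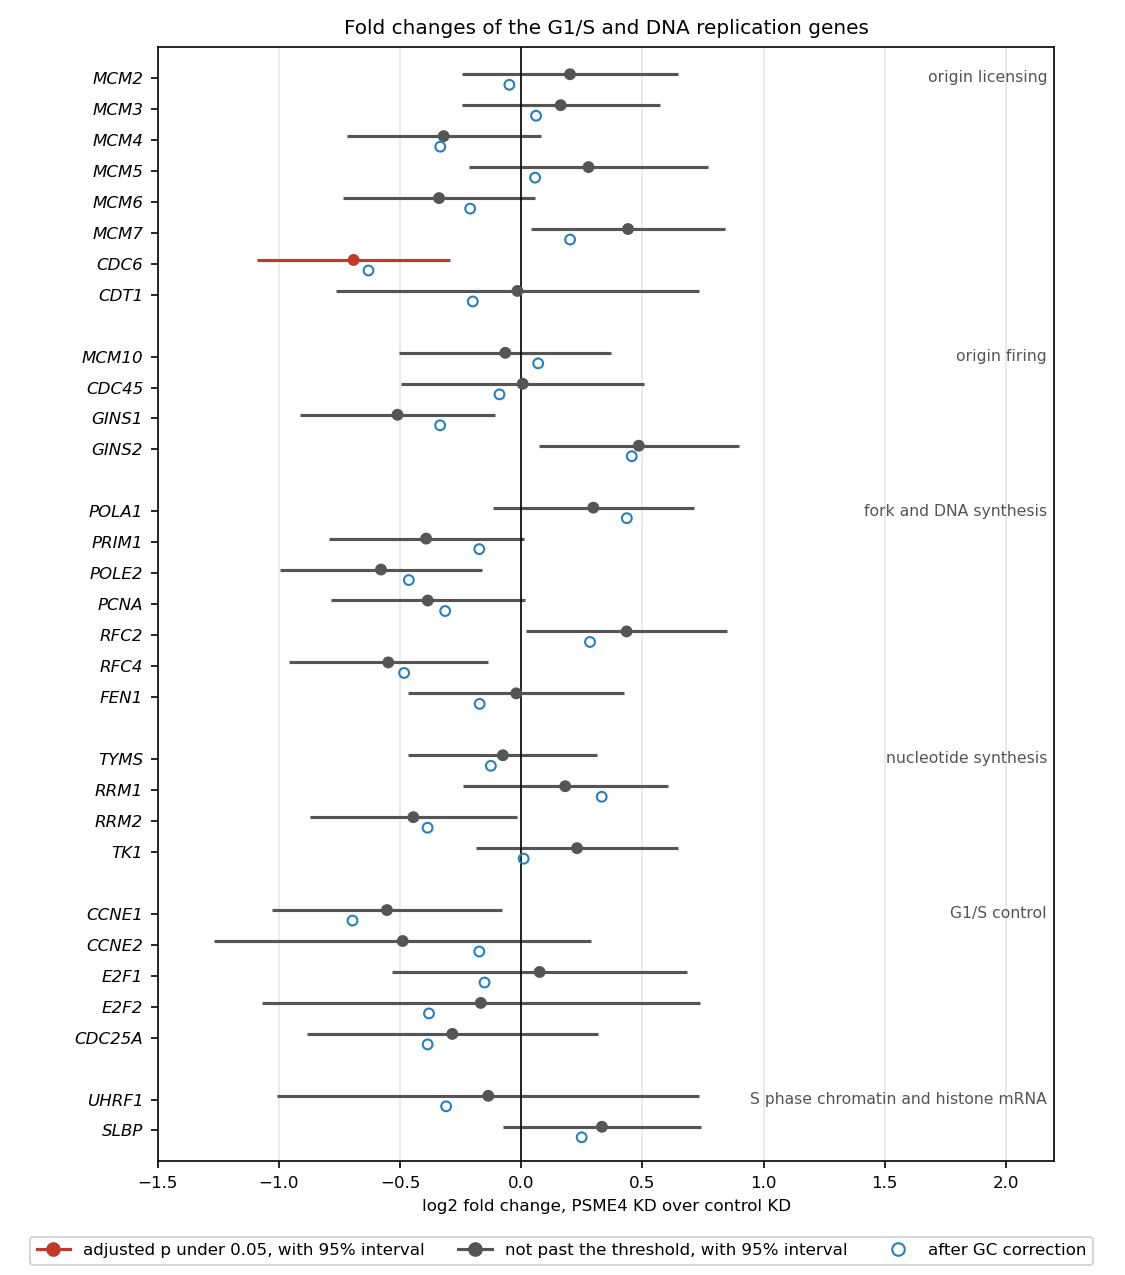
Log2 fold change of PSME4 KD over control KD for each of the 30 genes with its 95% interval from edgeR, and the value after GC correction as an open circle. CDC6 (red) is the only 1 of 30 genes past an adjusted p of 0.05, and partners such as GINS1 and GINS2 or RFC2 and RFC4 lie on opposite sides of 0.

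Since partners pointed apart, their counts were set against each other within each library, which removes the library scaling. These pairs were chosen after the values were seen and carry no test; with 2 libraries against 2 an exact permutation test could not go below 0.333. The ratio of GINS2 to GINS1 counts was 1.42 and 1.05 in PSME4 KD, against 0.611 and 0.617 in control KD. The ratio of RFC2 to RFC4 counts was 1.32 and 1.56 in PSME4 KD, against 0.802 and 0.639 in control KD. In both pairs the ratio lay above 1 in PSME4 KD and below 1 in control KD. MCM7 over MCM6 was 1.16 and 1.09 in PSME4 KD, against 0.662 and 0.651 in control KD. RRM1 over RRM2 was 1.63 and 1.72 in PSME4 KD, against 1.10 and 1.08 in control KD, which is a tight value in each group although RRM1 and RRM2 each varied between the control KD libraries. The ratios of POLA1 to PRIM1 also did not overlap, at 1.08 and 1.36 in PSME4 KD, against 0.765 and 0.750 in control KD, while those of CCNE1 to CCNE2 and of E2F1 to E2F2 overlapped. After the GC correction the log2 difference of the ratio was 0.79 for GINS2 over GINS1, 0.77 for RFC2 over RFC4, 0.72 for RRM1 over RRM2, 0.61 for POLA1 over PRIM1 and 0.41 for MCM7 over MCM6, against 0.99, 1.00, 0.62, 0.68 and 0.78 before it.

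**Figure D3:**
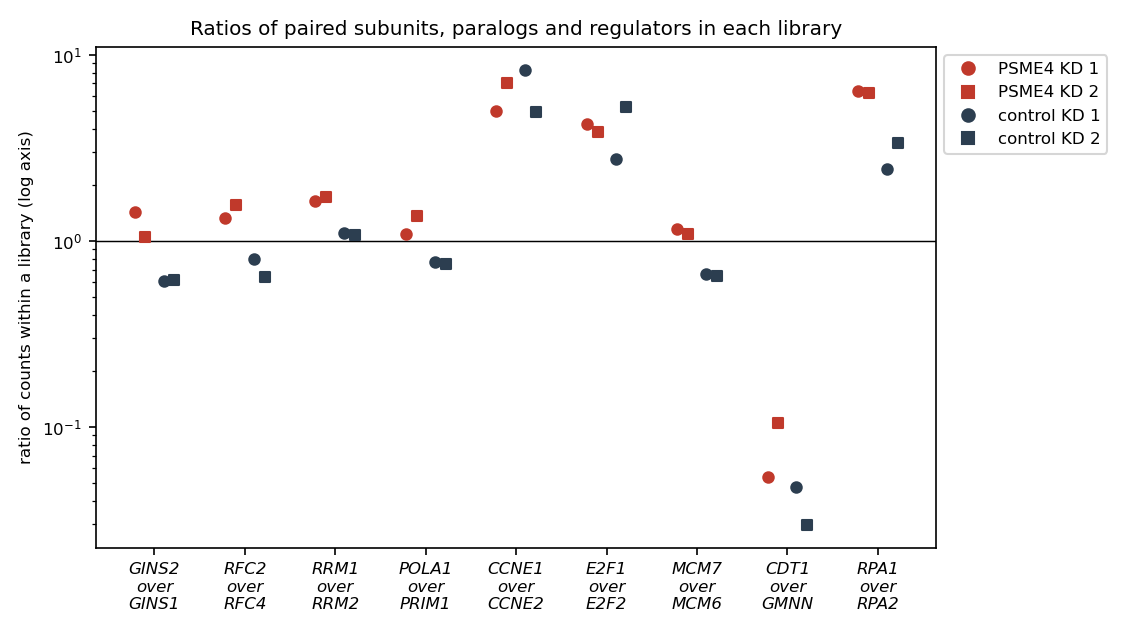
Ratio of the counts of a pair of genes within each library, on a log axis, with PSME4 KD in red to the left of control KD in dark blue; counts are not corrected for transcript length, so a ratio compares libraries and not levels of the genes. The ratios of 7 of the 9 pairs do not overlap between the groups, and those of CCNE1 over CCNE2 and E2F1 over E2F2 do. The pairs were chosen after the values were seen, and the share over all pairs of genes was not computed. Among single tested genes 55.0% do not overlap. For CDT1 over GMNN the ratios of PSME4 KD 1 and control KD 1 lie close together, at 0.0536 and 0.0478.

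GC content of the transcripts moved with the fold changes of these genes. Over the 30 genes Spearman's rho between GC content and log2 fold change was 0.46, and over 12973 tested genes it was 0.41; these describe genes of the same 4 libraries, which are not independent. The 15 genes under 50% GC had a median log2 fold change of −0.39 with 12 values below 0, and the 15 genes at or above it had 0.08 with 6 below 0. The control KD libraries differed with GC too, since rho for control KD 2 over control KD 1 was −0.70 over the 30 genes. After the correction the 15 low-GC genes had a median of −0.21 and the 15 others −0.09, rho was 0.10, the median of all 30 was −0.17, and CDC6 (−0.63) and CCNE1 (−0.70) passed, both lower, beside 9.22% of all genes, 5.17% lower.

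**Figure D4:**
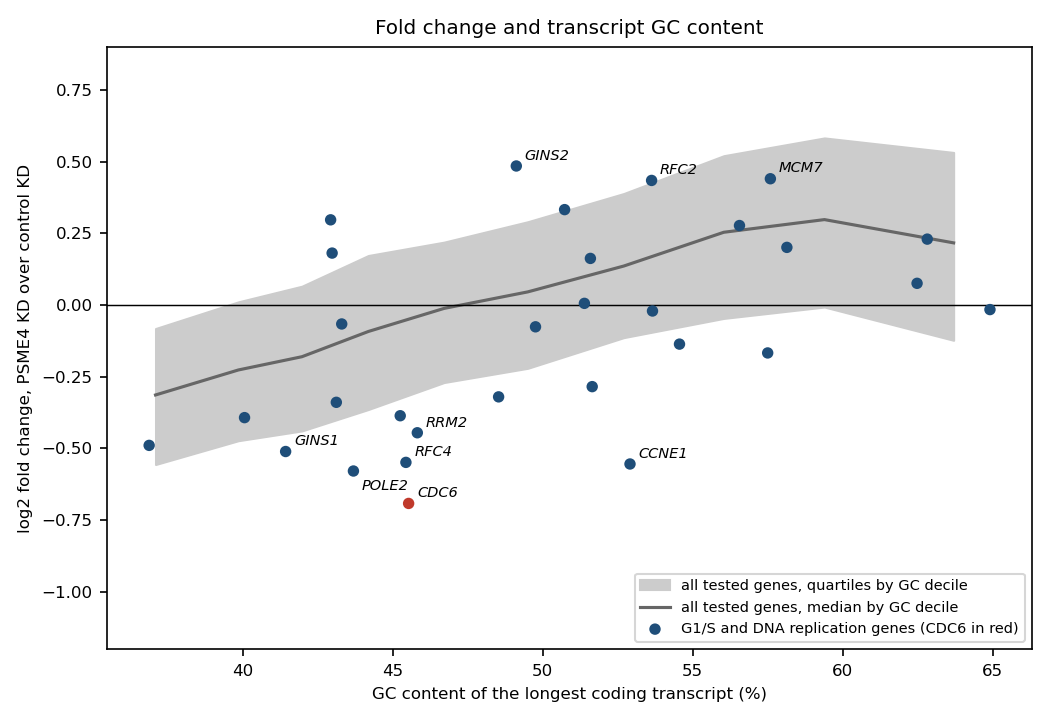
Log2 fold change of PSME4 KD over control KD against the GC content of the longest coding transcript for the 30 genes, over the median and quartiles of all tested genes in 10 bins of GC content. Fold changes of the 30 genes climb with GC content as those of all genes do. Genes outside the grey quartile band include, among others, CDC6, CCNE1, POLE2, RFC4, GINS1 and RRM2 below it and GINS2, POLA1 and RRM1 above it. A band between quartiles leaves out as many genes as it holds in each bin, so a place outside it is not unusual.

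Outside the 30 genes, cyclin D1, geminin and subunits of RPA fell. In 6 further lists of licensing, fork, nucleotide, G1/S, checkpoint and chromatin genes, 130 of 135 genes were tested, of which 16 fell and 0 rose by edgeR. That is 12.3% lower, beside 6.00% of all genes that passed in this direction, and 0 higher, beside 4.56%. The lists were written with earlier results of these data known, so these shares are a description and carry no test. The median level in control KD was 50.7 CPM for these genes and 20.3 CPM for all tested genes. What part this difference in depth has in the shares was not tested. At an unadjusted p under 0.05 there were 27 of 130 lower, beside 14.1% of all genes, and 3 higher, beside 12.1%. DESeq2 called 13 lower, beside 5.45% of genes with an adjusted p, limma voom called 16 lower, beside 5.93%, and neither called any higher. MTBP, DSCC1 and SAMHD1 were not called by DESeq2, and GMPS and SAMHD1 were not called with library size as the only scaling. The median log2 fold change was −0.16, and the median GC content of these genes was 45.1%, against 48.0% over all tested genes. After the GC correction the median was −0.05, and 11 of 130 genes were lower, beside 5.17% of all genes, and none higher; 10 of the 11 were among the 16, while MTBP, DSCC1, RRM2B, PPAT, GMPS and HAT1 no longer passed, and DTYMK did. Also 4 of the 16 lie on chromosome 8 (MTBP, DSCC1, RRM2B and E2F5), where the median log2 fold change over 459 tested genes was −0.36 and 21.4% of genes fell; off that chromosome, a subset chosen after the data were seen, 12 of 123 genes fell, beside 5.46% of all tested genes not on it. What part chromosome 8 has in these values was not tested. Without PSME4 KD 1 or 2 edgeR called 0 and 2 of the 16, and without control KD 1 or 2 it called 0 and 3.

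The largest decreases among the 16 genes, those of CCND1, GMNN and CKS1B, were in regulators that act with the 30 genes. CCND1, the cyclin D1 that starts the path to E2F release, was at 58.8 and 52.6 CPM in PSME4 KD, against 139 and 120 CPM in control KD. It fell 2.33-fold (log2 fold change −1.22, SE 0.20, adjusted p = 0.000249 by edgeR) and was the only 1 of the 16 to pass a test against a log2 change of 0.58. GMNN, the geminin that keeps CDT1 inactive outside G1, was at 49.1 and 31.8 CPM in PSME4 KD, against 77.8 and 78.0 CPM in control KD. It fell 1.93-fold (−0.95, SE 0.21, adjusted p = 0.00592, edgeR), and the ratio of CDT1 to GMNN counts was 0.0536 and 0.105 in PSME4 KD, against 0.0478 and 0.0298 in control KD. The log2 difference of that ratio was 0.99, and 0.63 after the GC correction. CKS1B, a CDK-binding protein that helps degrade p27, fell by 0.93 (SE 0.21), E2F5 by 0.88 (SE 0.20) and the repressor E2F6 by 0.73 (SE 0.22). CKS1B was at −0.60 without control KD 1. The p27 gene CDKN1B (−0.50), the activator E2F3 (0.57) and CDK4 (0.31) did not pass.

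RPA, the trimer that coats single-stranded DNA, had subunits with values on both sides of 0. RPA2 was at 34.2 and 34.3 CPM in PSME4 KD, against 66.3 and 57.0 CPM in control KD. RPA3 was at 223 and 196 CPM in PSME4 KD, against 370 and 305 CPM in control KD. Both fell, RPA2 by 0.85 (SE 0.20, adjusted p = 0.00847) and RPA3 by 0.69 (SE 0.20, adjusted p = 0.0236, edgeR). RPA1, the large subunit, was at 219 and 214 CPM in PSME4 KD, against 161 and 192 CPM in control KD, a log2 fold change of 0.29 that did not pass. The count ratio of RPA1 to RPA2 was 6.41 and 6.24 in PSME4 KD, against 2.43 and 3.37 in control KD. RPA3 overlaps another protein-coding gene, UMAD1, so its counts are uncertain, as are those of E2F5, PPAT and SAMHD1, which overlap RBIS, PAICS and TLDC2.

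Other fork genes that fell were POLE4, a histone-fold subunit of polymerase epsilon (−0.88, SE 0.23, and −0.41 without control KD 1), RNASEH2B, a subunit of the ribonuclease that removes ribonucleotides (−0.80, SE 0.23, and −0.52 without PSME4 KD 2), and DSCC1, a part of an alternative clamp loader (−0.79, SE 0.24). The catalytic subunit RNASEH2A was at 0.56 (SE 0.23) and the clamp loader subunit RFC3 at −0.45 (SE 0.19), and neither passed. MTBP, which takes part in origin firing, fell by 0.76 (SE 0.25) and was at −0.45 after the GC correction. The origin recognition complex subunits ORC5, ORC2 and ORC4 had values of −0.43, −0.41 and −0.44 that did not pass, and over the 6 subunits the median was −0.39, and −0.15 after the GC correction.

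Nucleotide genes that fell were PPAT, the first enzyme of purine synthesis (−0.80, SE 0.21), RRM2B, a p53-inducible small subunit of ribonucleotide reductase (−0.73, SE 0.21, and −0.46 without control KD 2), SAMHD1, which degrades dNTPs (−0.72, SE 0.23), and GMPS, which makes GMP (−0.61, SE 0.20). PPAT and RRM2B were at −0.52 and −0.41 after the GC correction and no longer passed, nor did GMPS (−0.42). PAICS (−0.44), which overlaps PPAT at its start, MTHFD1 (−0.39) and CAD (0.46) did not pass. None of 19 checkpoint and fork protection genes passed by edgeR, DESeq2 or limma voom. At an unadjusted p under 0.05 by edgeR there were 5 of 19, 0 higher and 5 lower. Over all genes this share was 26.2%, 12.1% higher and 14.1% lower. The median of this list was −0.33, and −0.14 after the GC correction. Of its values 17 of 19 were below 0, beside 6774 of 13497 over all tested genes. ETAA1 (−0.54) and TIPIN (−0.58) were among the genes of this list with the lowest p-values. Of the chromatin genes, HAT1, a histone acetyltransferase of new histones, fell by 0.67 (SE 0.21) and was between −0.44 and −0.36 without PSME4 KD 2, without control KD 2 or after the GC correction, while SSRP1 (0.41), CHAF1B (0.38) and ZNF367 (−0.46) did not pass.

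**Figure D5:**
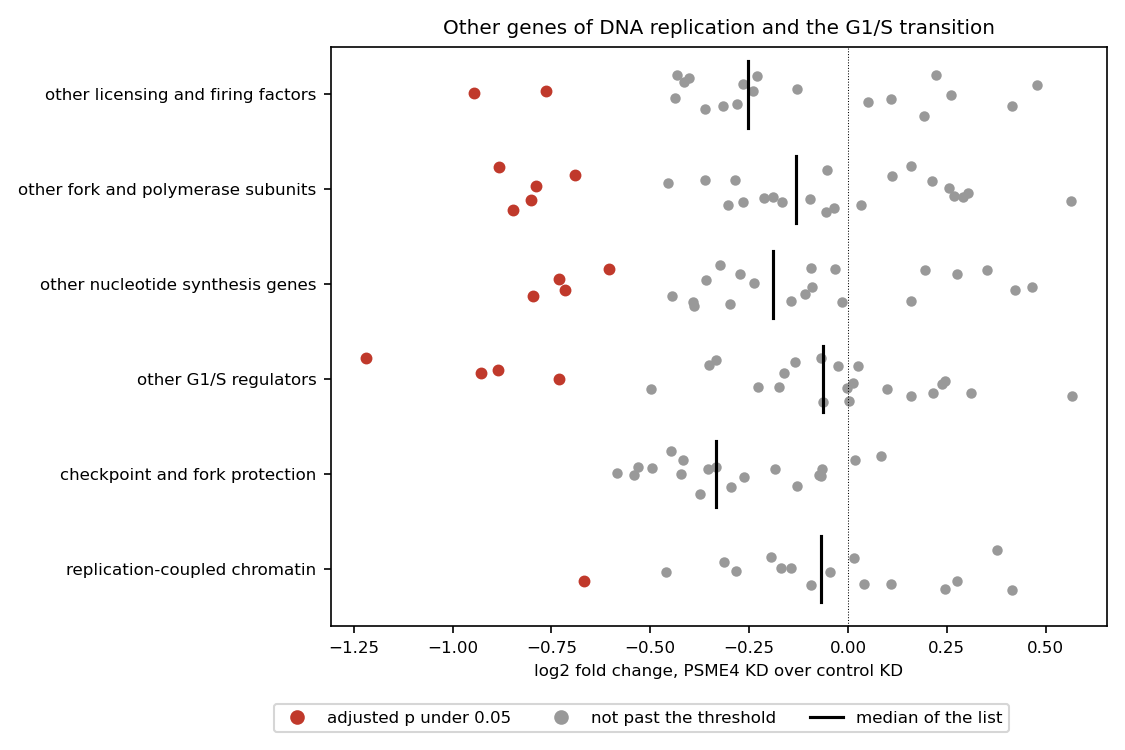
Log2 fold change of PSME4 KD over control KD for the 130 tested genes of 6 further lists, with genes past an adjusted p of 0.05 in red and the median of each list as a black bar; vertical scatter within a list has no meaning. All 16 red points lie below 0, and the checkpoint list, with a median of −0.33, has no gene past the threshold.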

How the data were processed

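Polyadenylated RNA was sequenced from 4 A549 libraries, prepared with the Lexogen SENSE kit per the labels' protocols. The submitters' processing notes name cutadapt, STAR, DESeq2 and the build hg38, without versions. The counting tool, its strand setting and the annotation are details not given in the sources used here. Values deposited as counts are raw whole numbers per gene, per the file headers. The same table holds signal values, the authors' counts divided by a size factor per library, regularised log2 values of the authors, and the authors' own log2 fold change (control KD over PSME4 KD) with its p-value and adjusted p-values. No row had a largest count below 6, so the table holds no gene without reads.

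edgeR 4.0.16 in R 4.3.3 was run on the counts. filterByExpr kept 13497 of 15037 genes, TMM set the scaling, and glmQLFit and glmQLFTest used a group term alone, which leaves 2 residual degrees of freedom. Benjamini-Hochberg adjustment ran over all tested genes, with a threshold of 0.05. A standard error is the size of a log2 fold change over the square root of its F, and 95% intervals use the t quantile of the fit. Precision was set by 2 libraries a group with a biological coefficient of variation of 15.3%. Within groups, libraries differed beyond counting noise (chi-square per degree of freedom 19.2 in PSME4 KD and 23.9 in control KD).

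GC content and length are those of the longest coding transcript in GENCODE 29, which 96.1% of tested genes and all 30 described genes had. The GC correction fits a lowess curve (span 0.4) of each library's log2 deviations against GC content and passes it to edgeR as an offset. Promoters and coordinates are from RefSeq on GRCh38.p14. Of the 30 genes, 13 overlap another RefSeq gene, 5 of them a protein-coding one (MCM7, GINS2, TYMS, CCNE2 and UHRF1). Of the 16 other genes called 4 overlap a protein-coding one. In these genes reads may have been shared or dropped.

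The genes, the further lists and the GC correction were chosen with earlier results of these data known. All 30 genes are named, with values in every library for those at an unadjusted p under 0.05 and the most abundant of each role; of the further lists, those past the threshold and the next 3 by p-value, of which 1 gene is not reported here. Alternatives were DESeq2's size factors, library size alone, DESeq2 1.42.0, limma 3.58.1 voom, no filter, at least 50 counts in 2 libraries, a replicate block, each library left out, a threshold of 0.10, and a glmTreat test against 0.58 on the log2 scale. The steps were tested on simulated counts.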

Additional observations from a re-analysis of the deposited data

How the results depend on the processing

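The call of CDC6, the only 1 of the 30 genes called, was kept by every alternative that used all 4 libraries except a test against a log2 change of 0.58, which called 0 of the 30; a threshold of 0.10 called 4 lower (CDC6, GINS1, POLE2 and RFC4) and the GC correction 2 lower. With 1 library left out, 0 of the 30 genes were called in any of the 4 fits; there the lone library of a group is assumed to vary like the other group. The median log2 fold change of the 30 genes ran from −0.21 to 0.0029 with 1 library left out and was −0.17 after the GC correction. With 1 library left out 14 to 22 of the 30 intervals lay inside −1 to 1, and after the GC correction 27 did. Over all genes, 616 were called higher and 810 lower; with 1 library left out these were 15 to 192 and 26 to 89, at a threshold of 0.10 they were 1006 and 1234, and against 0.58 they were 43 and 72. Of the other pathway genes, 0 to 3 were called lower with 1 library left out and 1 against 0.58. PSME4 ran from −1.17 to −0.97 with 1 library left out, and its value of −1.08 did not pass against 0.58.

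Some values changed sign under some alternatives, none of them past the threshold, and the cause was not tested. After the GC correction MCM2 was at −0.049, MCM10 at 0.070, CDC45 at −0.090 and E2F1 at −0.15. With library size as the only scaling CDT1 was at 0.027 and FEN1 at 0.019, and with limma voom CDT1 was at 0.0079. With 1 library left out the log2 fold change ran from −0.090 to 0.60 for MCM5, −0.31 to 0.36 for CDT1, −0.27 to 0.17 for MCM10, −0.047 to 0.065 for CDC45, −0.19 to 0.16 for FEN1, −0.13 to 0.0079 for TYMS, −0.10 to 0.53 for RRM1, −0.85 to 0.0032 for CCNE2, −0.26 to 0.38 for E2F1, −0.69 to 0.69 for E2F2 and −0.42 to 0.22 for UHRF1. The other 19 of the 30 genes kept their sign when a library was left out.

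The labels do not say whether same-numbered libraries were paired. Their deviations correlated at −0.0429, so no shared deviation was seen, but this cannot show whether they shared a culture or a batch. With the replicate number as a block 1 of the 30 genes, 16 of the other pathway genes and 700 higher and 854 lower genes in all were called. DESeq2 gave no adjusted p for E2F2 and UHRF1, and the filter of 50 counts gave no value for CDT1, CCNE2, E2F2 and UHRF1, whose low depth limits what their intervals can show.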
